A study of Mus musculus with 15 samples.

Results

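Casp2, Cradd and Pidd1 encode the 3 components of the PIDDosome, and their transcripts were followed across 15 mouse tumors. They were chosen by gene name from a table of 23329 genes. Pidd1 is listed there under its older symbol, Lrdd, and was matched through the RefSeq synonyms. Messenger RNA-seq libraries had been made from lymphomas of cervical lymph nodes and from paraspinal thoracic neuroblastomas, each tumor from a different mouse. The lymphomas came from EμMyc mice of C57BL/6 background, wild type for Casp2 (EμMyc, n = 4) or Casp2-/- (EμMyc/Casp2-/-, n = 3). The study sequenced a further EμMyc/Casp2-/- lymphoma and removed it as an outlier in expression, and it is not among the 15 tumors. The spread of this group is therefore that of the tumors kept. The neuroblastomas came from Th-MYCN mice of Sv129/C57BL6 background, wild type for Casp2 (Th-MYCN, n = 4) or Casp2-/- (Th-MYCN/Casp2-/-, n = 4). Every tumor of both types carried a MYC family transgene. The lymphoma transgene puts Myc under the immunoglobulin heavy chain enhancer, which acts in B lineage cells. The neuroblastoma transgene puts MYCN under the tyrosine hydroxylase promoter, which acts in the sympathetic nervous system. The labels do not say which part of Casp2 was deleted or whether the mice were male or female. The tumors were noted at 13 to 19 weeks of age in EμMyc mice and at 8 to 12 weeks in EμMyc/Casp2-/- mice, so in the lymphomas the age at onset and the genotype cannot be told apart. The ages overlapped between Th-MYCN (10 to 21 weeks) and Th-MYCN/Casp2-/- mice (15 to 24 weeks). Tumor type was likewise tied to strain and tissue. The comparisons asked what loss of Casp2 did to the transcripts of each tumor type, and how the tumor types differed.

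Caspase-2 is a protease that is made as an inactive proenzyme and becomes active when copies of it are brought together. In the PIDDosome, PIDD1 is the platform protein, RAIDD (the product of Cradd) is the adaptor whose death domain binds PIDD1 and whose caspase recruitment domain binds caspase-2, and caspase-2 is the enzyme. The complex forms after DNA damage and when a cell carries extra centrosomes, where PIDD1 sits on the distal appendages of the centriole, and active caspase-2 cleaves MDM2, which stabilises p53. Loss of Casp2 is known to speed lymphoma in EμMyc mice and to delay neuroblastoma in Th-MYCN mice.

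The 3 genes lie on different chromosomes. In GENCODE M21 (GRCm38), Casp2 is at chr6:42264985-42282508 on the plus strand, and its longest coding transcript has 11 exons and 3529 bases. Cradd is at chr10:95174746-95324133 on the minus strand, with 3 exons and 1661 bases spread over 149388 bases of the genome. Pidd1 is at chr7:141438113-141444025 on the minus strand, with 16 exons and 3357 bases. The promoter sequences below run from 250 bases before to 50 bases after each start (RefSeq, GRCm38.p6) and are shown because the transcripts of the 3 genes differed several-fold in level. Capitals mark matches on both strands to the CCAAT box, to the GC box (GGGCGG) and to a TATA box (spelled TATAAA), and no marked motif overlaps another.
Casp2: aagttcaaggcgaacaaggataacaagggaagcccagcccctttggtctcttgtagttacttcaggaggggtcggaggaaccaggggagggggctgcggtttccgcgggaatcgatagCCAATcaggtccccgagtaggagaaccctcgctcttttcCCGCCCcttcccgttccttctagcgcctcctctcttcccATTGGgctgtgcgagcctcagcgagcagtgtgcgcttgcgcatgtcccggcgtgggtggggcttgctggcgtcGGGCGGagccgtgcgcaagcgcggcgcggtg
Cradd: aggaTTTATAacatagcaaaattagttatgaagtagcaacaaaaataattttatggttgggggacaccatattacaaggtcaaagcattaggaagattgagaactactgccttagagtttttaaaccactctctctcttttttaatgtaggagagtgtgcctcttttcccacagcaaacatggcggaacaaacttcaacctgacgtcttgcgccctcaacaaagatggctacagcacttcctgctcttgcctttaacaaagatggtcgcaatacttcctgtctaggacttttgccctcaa
Pidd1: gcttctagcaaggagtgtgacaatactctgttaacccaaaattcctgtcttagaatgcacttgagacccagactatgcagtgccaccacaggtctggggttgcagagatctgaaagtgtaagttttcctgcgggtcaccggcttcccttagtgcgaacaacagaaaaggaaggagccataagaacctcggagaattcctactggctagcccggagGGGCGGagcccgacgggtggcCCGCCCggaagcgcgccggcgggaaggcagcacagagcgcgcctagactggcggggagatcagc
These windows are chr6:42264735-42265034 for Casp2, chr10:95324088-95324387 for Cradd and chr7:141443976-141444275 for Pidd1, each written along the strand of its gene. The Casp2 promoter held 26 CpG dinucleotides and the Pidd1 promoter 17, against 4 in the Cradd promoter and a median of 7 over 32851 mouse promoters. Casp2 had 2 matches to CCAAT (37.4% of all promoters hold at least 1) and 2 to GGGCGG (35.7%). Pidd1 had 2 matches to GGGCGG. Cradd had 1 match to TATAAA (13.6% of promoters). This match was on the opposite strand, at the upstream end of the window and so far from the start. The E-box CACGTG, the DNA element known to be bound by MYC family proteins, was not found in these letters in any of the 3 windows, and 7.15% of all promoters held it.

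Reads per gene were counted on each strand, and the second-strand counts were used (4940464 to 17638029 reads per library). Levels are given as CPM, reads scaled to a common library size, with the sizes adjusted by the trimmed mean of M values (TMM). A gene was tested if it passed 1 CPM in at least 3 tumors, which left 14880 genes and all 3 members. Differences are log2 fold changes from edgeR, and a gene passed where the false discovery rate (FDR) of the likelihood ratio test (LRT) over all tested genes was below 0.05. The stricter quasi-likelihood (QLF) FDR is given beside it where it mattered. On simulated counts, 21 of 124 LRT calls and 4 of 77 QLF calls were false in the lymphoma genotype comparison. In the neuroblastomas these were 31 of 149 and 7 of 106. The LRT calls there thus held more false ones than the limit of 0.05 allows. B cell markers summed to 1787 to 3387 CPM in the lymphomas and to at most 20.4 CPM in the neuroblastomas, and sympathetic neuroblast markers to 1641 to 2798 CPM in the neuroblastomas and at most 10.3 CPM in the lymphomas. The tissue labels and the markers therefore matched. EμMyc/Casp2-/- replicate 1 stood apart. It had the fewest reads, 11.2% of its reads were unmapped (2.26% to 3.89% in the other libraries), and its 5 T cell markers summed to 800.7 CPM, against 34.5 and 106 CPM in the other EμMyc/Casp2-/- tumors and 5.60 to 51.5 CPM in EμMyc. Results that rest on the EμMyc/Casp2-/- tumors are given with it, and for many of the tests the values without it stand beside them. Group means, shares of the wild-type level and marker sums are given with it only.

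Casp2, the targeted gene, was lower in EμMyc/Casp2-/- than in EμMyc tumors but was still read in every one of them. The EμMyc tumors had 167, 125, 203 and 139 CPM in replicates 1 to 4. The EμMyc/Casp2-/- tumors had 58.0, 51.9 and 76.1 CPM. All 3 Casp2-/- lymphomas were below the lowest wild-type lymphoma, so the groups did not overlap, as for 1.96% of all tested genes in this direction. Group means were 159 ± 34.2 CPM (SD, n = 4) and 62.0 ± 12.6 CPM (SD, n = 3). The log2 fold change was -1.35 (SE 0.27, edgeR LRT FDR 0.000400), a 2.56-fold lower level. Of all tested genes, 1.5% passed in this comparison and 0.323% passed as lower. The call did not hold with the QLF test (FDR 0.0536), which 0.141% of genes passed. Without EμMyc/Casp2-/- replicate 1, the log2 fold change was -1.29 (LRT FDR 0.0137).

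In the neuroblastomas the Casp2 difference was smaller and did not pass. The Th-MYCN tumors had 126, 93.3, 76.0 and 106 CPM, and the Th-MYCN/Casp2-/- tumors 80.2, 57.7, 39.6 and 54.5 CPM. The groups overlapped, since the library labelled Th-MYCN/Casp2-/- replicate 1 (80.2 CPM) was above Th-MYCN replicate 3 (76.0 CPM). The study also checked the Casp2 deletion of every tumor by genotyping and immunoblotting, which are not analysed here. Group means were 100.3 ± 20.9 and 58.0 ± 16.7 CPM (SD, n = 4 each). The log2 fold change was -0.79 (SE 0.25, 95% interval -1.27 to -0.31, edgeR LRT FDR 0.101, QLF FDR 0.327), with 0.894% of tested genes passing in this comparison by the LRT and 0.0336% by the QLF test. Without the library labelled Th-MYCN/Casp2-/- replicate 1 it was -0.98 (LRT FDR 0.0362). Leaving out any of the other 7 libraries did not make it pass. The difference between the genotype effects of the tumor types was -0.57 on the log2 scale (SE 0.36, LRT FDR 0.729; 0.914% of tested genes passed), so the smaller effect in the neuroblastomas was not separated from that in the lymphomas.

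Expressed against the wild-type mean of the same tumor type, the Casp2 level left in Casp2-/- tumors was 36.6%, 32.7% and 48.0% in the lymphomas (mean 39.1% ± 7.93, n = 3). It was 79.9%, 57.5%, 39.5% and 54.4% in the neuroblastomas (mean 57.8% ± 16.7, n = 4). These shares rested on 297 to 1113 second-strand reads per Casp2-/- tumor, so counting error was at most 5.80% of a level. Reads were summed over all exons of the gene, so these counts cannot serve as a test of the deletion itself. Fewer cells of a type and less RNA per cell cannot be told apart in such bulk samples. In the neuroblastomas, the summed 5 endothelial markers were at 46.4 to 72.3 CPM with wild-type Casp2 and at 18.8 to 30.9 CPM without it. The 5 neuroblast markers summed to 2730 to 2798 CPM with wild-type Casp2 and to 1641 to 2502 CPM without it. Both sums were lower in every Casp2-/- tumor. The 4 Schwann markers summed to 24.9 to 58.7 CPM with wild-type Casp2 and to 44.5 to 75.7 CPM without it, with overlap. The B cell, T cell and myeloid sums overlapped as well. How often other sums did not overlap was not counted, and the part of these cells in the Casp2 difference was not tested.

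Among tumors with wild-type Casp2, the gene was higher in lymphoma than in neuroblastoma. The log2 fold change of EμMyc over Th-MYCN was 0.66 (SE 0.24, edgeR LRT FDR 0.0131, QLF FDR 0.0204), a 1.58-fold difference, and the ranges overlapped at 125 to 126 CPM. This call is read against the 62.2% of all tested genes that passed between these tumor types, 28.3% as higher in lymphoma, and the 60.3% that passed by the QLF test. It was lost without EμMyc replicate 3 (log2 fold change 0.53, LRT FDR 0.0637) and without Th-MYCN replicate 3 (0.55, LRT FDR 0.0644). In Casp2-/- tumors the log2 difference between the tumor types was 0.10 (SE 0.27, LRT FDR 0.775), and 0.20 without EμMyc/Casp2-/- replicate 1 (LRT FDR 0.572). The interaction was -0.51 without that tumor (LRT FDR 0.882).

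**Figure D1:**
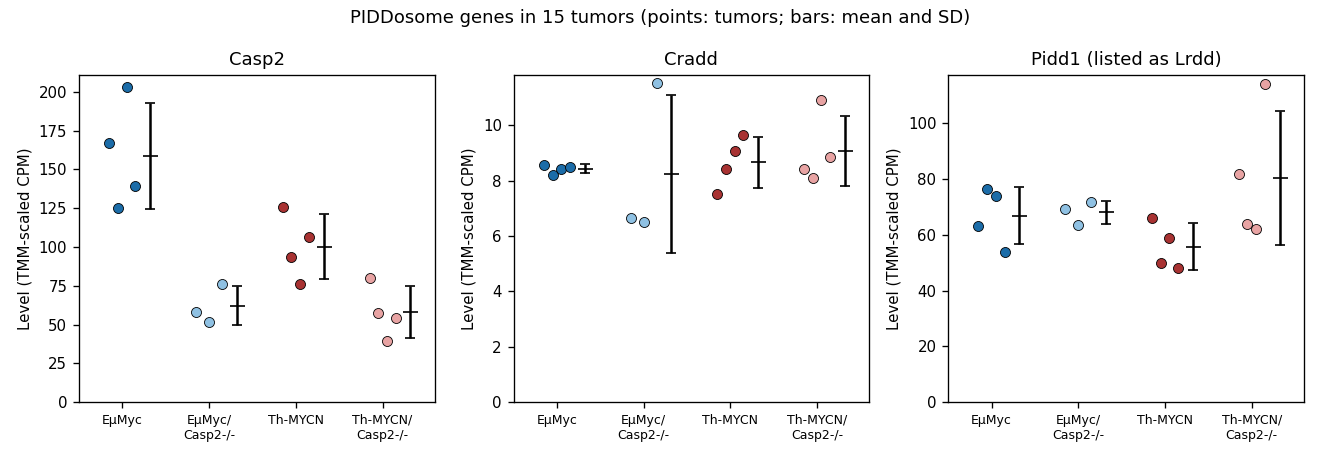
Level in TMM-scaled CPM (vertical axes, from 0) of Casp2, Cradd and Pidd1 in each of the 15 tumors (points) by group, with the group mean and SD beside them. Casp2 was at 51.9 to 76.1 CPM in EμMyc/Casp2-/- and 125 to 203 CPM in EμMyc tumors, while Cradd stayed between 6.51 and 11.5 CPM in all tumors and Pidd1 reached 114 CPM in 1 Th-MYCN/Casp2-/- tumor.

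Cradd, which encodes the adaptor RAIDD, had a low level in all 4 groups, with group means from 8.22 to 9.07 CPM. Its coefficient of variation was 34.6% in EμMyc/Casp2-/- tumors and 1.84% to 13.9% in the other groups. The EμMyc tumors had 8.57, 8.21, 8.43 and 8.50 CPM, and the EμMyc/Casp2-/- tumors 6.64, 6.51 and 11.5 CPM. The Th-MYCN tumors had 7.51, 8.43, 9.06 and 9.63 CPM, and the Th-MYCN/Casp2-/- tumors 8.43, 8.10, 10.9 and 8.86 CPM. The groups overlapped in every comparison, and the highest and the lowest of all 15 values were both from EμMyc/Casp2-/- tumors. Cradd was counted from 34 to 157 second-strand reads per tumor (71 to 311 on either strand). Counting error alone was thus 7.98% to 17.2% of a second-strand level. The spread of the 4 EμMyc values was smaller than that counting error and is no measure of how evenly the gene was expressed.

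None of the Cradd differences passed by edgeR's LRT or QLF test or by DESeq2, and none had an unadjusted p under 0.05. The log2 fold change with loss of Casp2 was -0.03 in the lymphomas (SE 0.32, 95% interval -0.66 to 0.61) and 0.06 in the neuroblastomas (SE 0.29, interval -0.51 to 0.63), with an LRT FDR of 1.00 in both. In the lymphomas the sign turned to 0.11 without EμMyc/Casp2-/- replicate 1 and under other scalings. Between tumor types the difference was -0.04 with wild-type Casp2 (SE 0.29, LRT FDR 0.917) and -0.13 without Casp2 (SE 0.32, LRT FDR 0.748), where it turned to 0.05 without EμMyc/Casp2-/- replicate 1 (LRT FDR 0.914). The interaction was -0.09 (SE 0.44, LRT FDR 1.00), and 0.03 without that tumor (LRT FDR 1.00). Over all 15 tumors the coefficient of variation of Cradd was 15.5%, and 2.78% of tested genes had a lower one (median 51.4%). An annotated antisense gene, Gm48882, spans the start of Cradd and shares 124 exon bases with its longest coding transcript, and it has no counts of its own here.

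Pidd1, the platform of the complex, did not pass in any comparison by edgeR's LRT or QLF test or by DESeq2. The EμMyc tumors had 63.2, 76.4, 74.1 and 54.1 CPM, and the EμMyc/Casp2-/- tumors 69.2, 63.7 and 71.7 CPM, all inside the wild-type range. The log2 fold change in the lymphomas was 0.03 (SE 0.24, 95% interval -0.44 to 0.49, LRT FDR 0.998), and also 0.03 without EμMyc/Casp2-/- replicate 1 (LRT FDR 1.00). The Th-MYCN tumors had 66.1, 49.8, 58.9 and 48.1 CPM, and the Th-MYCN/Casp2-/- tumors 82.0, 63.9, 62.2 and 114 CPM. The values 63.9 and 62.2 CPM were below the highest wild-type value, so the groups overlapped. The log2 fold change was 0.53 in the neuroblastomas (SE 0.22), with an unadjusted LRT p of 0.0159 by edgeR, a level that 7.78% of tested genes reached, and an FDR of 0.383. Without Th-MYCN/Casp2-/- replicate 4 it was 0.33 (LRT FDR 0.903). The genotype effects of the tumor types differed by -0.51 (SE 0.32, LRT FDR 0.729), and by -0.50 without EμMyc/Casp2-/- replicate 1 (LRT FDR 0.849). EμMyc and Th-MYCN tumors differed by 0.26 (SE 0.22, LRT FDR 0.295), and the Casp2-/- tumors by -0.24 (SE 0.24, LRT FDR 0.393), or -0.19 without that lymphoma (LRT FDR 0.563).

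**Figure D2:**
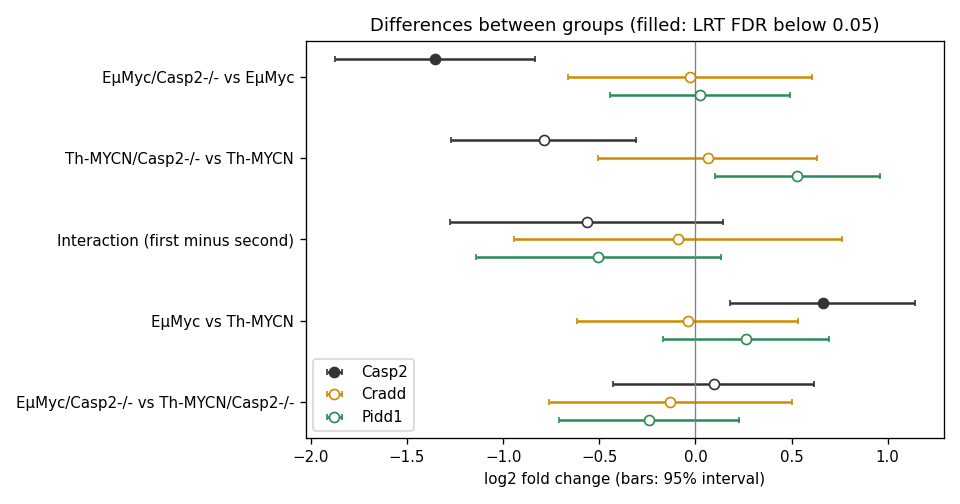
Log2 fold change of Casp2, Cradd and Pidd1 (horizontal axis) in 5 comparisons, with 95% intervals, and filled points where the LRT FDR was below 0.05. The points that passed are Casp2 in EμMyc/Casp2-/- against EμMyc (-1.35) and Casp2 in EμMyc against Th-MYCN (0.66), and the Cradd intervals all cross 0.

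Set against each other per kilobase of transcript, the 3 genes kept the order Casp2, Pidd1, Cradd in all 8 tumors with wild-type Casp2. The full length of the longest coding transcript was used in every group, also where part of Casp2 was deleted. In CPM per kilobase, Casp2 averaged 45.0 ± 9.68, Pidd1 19.9 ± 3.08 and Cradd 5.07 ± 0.09 in EμMyc (SD, n = 4), with no overlap between the genes. In Th-MYCN the levels were 28.4 ± 5.92, 16.6 ± 2.50 and 5.21 ± 0.55. In the Casp2-/- tumors, Casp2 (17.6 ± 3.57 in lymphoma, 16.4 ± 4.74 in neuroblastoma) and Pidd1 (20.3 ± 1.22 and 24.0 ± 7.17) had overlapping ranges. Cradd remained the lowest of the 3 there, with 4.95 ± 1.72 and 5.46 ± 0.76.

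A ratio taken within a library does not depend on its scaling. Casp2 over Pidd1 was 2.51, 1.56, 2.60 and 2.45 in EμMyc and 0.798, 0.776 and 1.01 in EμMyc/Casp2-/- tumors. It was 1.81, 1.78, 1.23 and 2.11 in Th-MYCN and 0.930, 0.859, 0.606 and 0.455 in Th-MYCN/Casp2-/- tumors. The ratio was thus above 1 in every wild-type tumor and below 1 in all but 1 Casp2-/- tumor, with no overlap between genotypes in either tumor type. Where the ratio crosses 1 depends on the transcript lengths used. In the exact permutation test (two-sided) of the log2 ratio, p was 0.0571 in the lymphomas, the smallest that 4 against 3 tumors allow, and 0.0286 in the neuroblastomas, the smallest for 4 against 4. Both became 0.114 after Benjamini-Hochberg adjustment of the exact permutation p over 8 ratio tests. With groups this small none of the 8 could pass after adjustment, so that none did decides nothing. Casp2, the targeted gene, is 1 side of each tested ratio, and its lower level alone moves them. How often ratios of other gene pairs did not overlap was not counted. The log2 ratio of Pidd1 to Casp2 was 1.39 higher in EμMyc/Casp2-/- than in EμMyc tumors, and 1.34 higher without EμMyc/Casp2-/- replicate 1. The log2 ratio of Cradd to Casp2 was 1.26 higher, and 1.35 without that tumor. Casp2 over Cradd averaged 8.85 ± 1.85 in EμMyc and 3.66 ± 0.51 in EμMyc/Casp2-/- tumors, without overlap. It averaged 5.55 ± 1.65 in Th-MYCN and 3.11 ± 1.14 in Th-MYCN/Casp2-/- tumors, with overlap. Pidd1 over Cradd lay between 2.47 and 6.37 in all 15 tumors, and its range overlapped among the 4 groups.

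**Figure D3:**
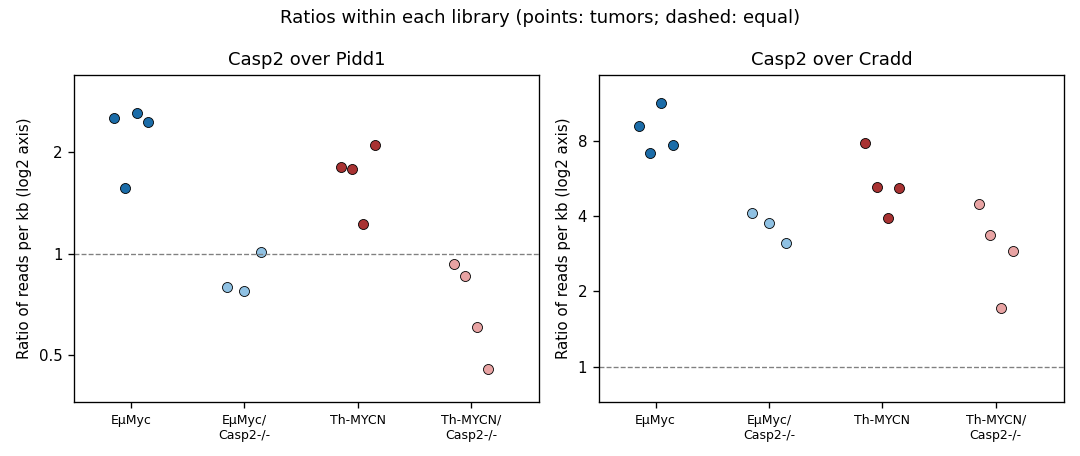
Ratio of Casp2 to Pidd1 (left) and of Casp2 to Cradd (right) per kilobase of transcript in each tumor (points), on log2 axes, with a dashed line where both genes are equal. Casp2 over Pidd1 was 1.23 to 2.60 in tumors with wild-type Casp2 and 0.455 to 1.01 in Casp2-/- tumors.

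The strand columns gave no separate measure of antisense reads. For Casp2, 49.0% of 36086 strand-assigned reads were in the first-strand column, for Cradd 50.7% of 3297 and for Pidd1 51.7% of 26149. The median over tested genes was 50.5%. For all 3 genes, the strand columns summed to the unstranded column in 15 of 15 libraries. The first-strand share of Casp2 was 48.2% ± 1.21 in EμMyc and 48.3% ± 2.20 in EμMyc/Casp2-/- tumors (exact permutation p = 0.914), and 48.9% ± 0.33 and 50.4% ± 1.61 in the neuroblastomas (exact permutation p = 0.143). The reads left on Casp2 in Casp2-/- tumors were thus spread over both columns like those of other genes. In libraries split this evenly, the share and its permutation tests cannot show which strand the reads came from.

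The genes around the PIDDosome were examined in 6 lists with 35 genes, all of which were tested. With loss of Casp2, 0 of 35 passed in the lymphomas and 0 of 35 in the neuroblastomas by edgeR's LRT, by the QLF test and by DESeq2, and 4 had an unadjusted LRT p under 0.05 in each, or 11.4% against 9.89% of all tested genes in the lymphomas and 7.78% in the neuroblastomas. Their median log2 fold change was 0.03 in the lymphomas and 0.09 in the neuroblastomas, against -0.03 and -0.002 over all tested genes. The interaction passed for 0 of 35, with 3 at an unadjusted p under 0.05 (8.96% of all tested genes). Without EμMyc/Casp2-/- replicate 1, 0 of 35 passed in the lymphomas and 0 had an unadjusted LRT p under 0.05. The gene with the smallest p in the lymphomas was Bax, a pro-apoptotic target of p53. It was at 147, 121, 121 and 116 CPM in EμMyc and at 391, 162 and 127 CPM in EμMyc/Casp2-/- tumors. The groups overlapped, and the value of 391 CPM was from EμMyc/Casp2-/- replicate 1, the library that stood apart. Bax differed by 0.84 on the log2 scale (SE 0.30, edgeR LRT FDR 0.140), and 0.21 without that library (LRT FDR 1.00). Bax passed when EμMyc/Casp2-/- replicate 2 was left out (1.05, LRT FDR 0.0406) or replicate 3 (1.12, LRT FDR 0.00291), which makes 1 of 35 in these fits. Among all tested genes, 77 to 571 passed over the 7 lymphoma fits that each left out 1 tumor. In the neuroblastomas the gene with the smallest p was Mapt, which encodes tau, a protein that caspase-2 cleaves, at 299 ± 54.3 CPM with wild-type Casp2 and 485 ± 118 CPM without it (log2 fold change 0.70, SE 0.26, edgeR LRT FDR 0.244). The groups overlapped. The largest differences there were those of Cdkn2a (1.62) and Pycard (-1.37), which did not pass either. The Cdkn2a difference rested on 1 tumor. It was -0.07 without Th-MYCN/Casp2-/- replicate 2, and 1.90 to 1.97 without any other single tumor of that group. Both genes had low levels. Cdkn2a averaged 1.19 CPM with wild-type Casp2 and 3.67 CPM without it, where the highest value was 11.3 CPM. Pycard averaged 5.60 ± 5.87 CPM with wild-type Casp2, where 14.4 CPM was the highest value. Bax, Mapt, Cdkn2a and Pycard were singled out here after their values were seen.

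Between the tumor types the same lists differed about as often as other genes did. With wild-type Casp2, 23 of 35 passed, or 65.7% against 62.2% of all tested genes, 17 higher in EμMyc (28.3% of all genes) and 6 higher in Th-MYCN (33.9%). Without Casp2, 19 of 35 passed (54.3% against 60.2%), 14 higher in lymphoma (27.7% of all genes) and 5 higher in neuroblastoma (32.5%). Without EμMyc/Casp2-/- replicate 1, 20 of 35 passed, 15 higher and 5 lower in lymphoma. Among all tested genes, 8261 to 8900 passed in this comparison over the 7 fits that each left out 1 tumor. Of the 7 docking genes, 4 passed with wild-type Casp2. Fbf1, a protein of the centriole's distal appendages, was at 37.4 CPM in EμMyc and 133 CPM in Th-MYCN (log2 fold change -1.83, SE 0.18, edgeR LRT FDR 1.51e-21). Npm1, the nucleolar platform on which the PIDDosome can also form, was at 1443 and 462 CPM (log2 fold change 1.65). In Casp2-/- tumors, 3 of the docking genes passed, and Fbf1 (-1.52) and Npm1 (1.86) kept their directions. Without EμMyc/Casp2-/- replicate 1 Fbf1 was at -1.61 and Npm1 at 1.91.

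The 6 regulators are kinases and binding proteins that act on PIDD1 or caspase-2, and Bcl9l, a transcriptional regulator of Casp2. Of them, 4 (66.7%) passed with wild-type Casp2, all higher in EμMyc. Over all tested genes 62.2% passed, 28.3% as higher in EμMyc. Bub1b, a spindle checkpoint kinase, was 1.21 higher on the log2 scale and Aurkb, a mitotic kinase, 0.93. In Casp2-/- tumors 3 passed (50.0%, against 60.2% of all tested genes), with Bub1b at 1.04 and Atm, a DNA damage kinase, at 0.91. Without EμMyc/Casp2-/- replicate 1 it was 4, with Bub1b at 1.37 and Atm at 1.27. Of the 7 substrates, 4 (57.1%) passed in each comparison, 1 higher in lymphoma and 3 higher in neuroblastoma, and without that tumor 3 in Casp2-/- tumors. Mapt was at 0.560 CPM in EμMyc and 299 CPM in Th-MYCN tumors, and Sptan1, which encodes the cytoskeletal protein spectrin alpha, at 249 and 899 CPM (log2 fold change -1.85). In Casp2-/- tumors Sptan1 differed by -2.21 and Mapt by -9.19.

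Ripk1 and Ikbkg, through which PIDD1 can act on NF-κB, were higher in EμMyc than in Th-MYCN tumors by 1.84 and 0.52 on the log2 scale. In Casp2-/- tumors Ripk1 alone passed (1.60, and 1.625 without EμMyc/Casp2-/- replicate 1). Of the 7 genes of the p53 arm, 5 passed with wild-type Casp2 (71.4%, against 62.2% of all tested genes), 3 higher in EμMyc. Cdkn2a, which encodes the p53 activator ARF and the cell cycle inhibitor p16, ranged from 6.25 to 389 CPM among the 4 EμMyc tumors and from 0.366 to 2.90 CPM in Th-MYCN (log2 fold change 7.16, SE 1.15, edgeR LRT FDR 5.14e-06). Pmaip1, which encodes the pro-apoptotic protein NOXA, differed by 3.33. In Casp2-/- tumors 4 passed (57.1%, against 60.2% of all tested genes), with Cdkn2a at 5.57 and Pmaip1 at 3.22. Without EμMyc/Casp2-/- replicate 1 it was 5, with Cdkn2a at 6.06 and Pmaip1 at 3.6. Without replicate 3 of that group Cdkn2a was at 3.29. Of 6 other death-fold adaptors, 4 (66.7%) passed in each comparison, all higher in lymphoma. Over all tested genes, 28.3% passed as higher in lymphoma with wild-type Casp2 and 27.7% without it. Pycard, the inflammasome adaptor, differed by 2.53 with wild-type Casp2 and 4.46 without it (3.92 without EμMyc/Casp2-/- replicate 1). For Myd88, the Toll-like receptor adaptor, the differences were 2.28 and 2.68 (2.67 without that tumor). The 4 myeloid markers found in the table summed to 336 to 637 CPM in EμMyc and to 382 to 584 CPM in Th-MYCN tumors. They summed to 165 to 1005 CPM (median 737) in EμMyc/Casp2-/- and to 219 to 525 CPM (median 377) in Th-MYCN/Casp2-/- tumors. The ranges overlapped in both comparisons, and the part of such cells in the adaptor levels was not tested.

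**Figure D4:**
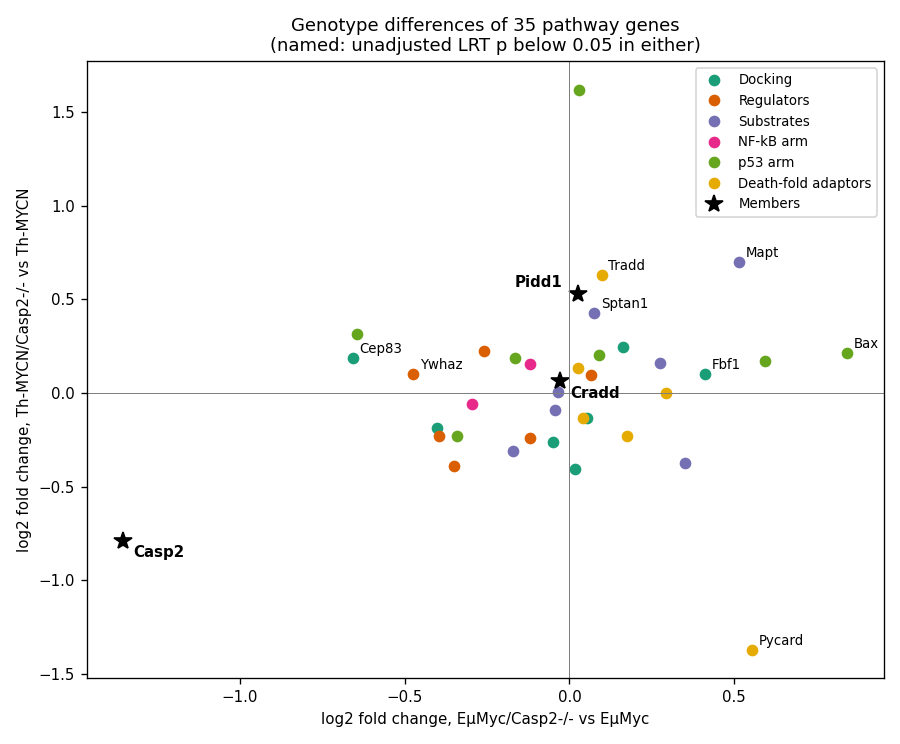
Log2 fold change with loss of Casp2 in the lymphomas (horizontal axis) against that in the neuroblastomas (vertical axis) for the 35 genes of 6 lists (colored points) and for Casp2, Cradd and Pidd1 (stars). Genes with an unadjusted LRT p under 0.05 in either tumor type are named, none of the 35 passed the FDR, and Casp2 lies apart from them at -1.35 and -0.79.

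The nearest protein-coding genes, 3 on each side of each member, were read as neighbors. Of 18 such genes, 16 were tested, and 0 passed with loss of Casp2 in either tumor type by edgeR's LRT, the QLF test or DESeq2, with 1 at an unadjusted LRT p under 0.05 in the lymphomas (Cep83) and 0 in the neuroblastomas. Over all tested genes the shares were 1.5% and 0.894% by FDR and 9.89% and 7.78% by unadjusted p. Without EμMyc/Casp2-/- replicate 1, no neighbor had an unadjusted LRT p under 0.05 in the lymphomas. Beside Casp2, Gstk1, Clcn1, Fam131b and Zyx had log2 fold changes between -0.99 and 0.43 in the lymphomas and between -0.15 and 0.85 in the neuroblastomas, and the values of each overlapped between genotypes. Tmem139, which ends 430 bases before Casp2, was at a mean of at most 0.0964 CPM in any group and was not tested, and neither was Tas2r144, a taste receptor gene. Between EμMyc and Th-MYCN, 10 of the 16 neighbors passed (62.5%, against 62.2% of all tested genes).

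The genes whose levels moved most like those of each member within groups were found by Pearson's r over 15 tumors, taken on log2 CPM after the group means were removed. For Casp2 these were Tmod4 (r = 0.92), Sf3b1 (0.87), Hddc2 (0.85), Cmya5 (0.83) and Ofd1 (0.83). For Cradd they were Zfp345 (0.88), Riiad1 (0.88), Alg3 (0.85), Ubl3 (0.84) and Rbm19 (0.83), and for Pidd1 Cd151 (0.90), Adamts10 (0.87), Aifm1 (0.87), Naaladl1 (0.84) and Tspan8 (0.84). The values are the highest among 14879 genes, and all genes were read in the same 15 libraries, which differed in depth. Among the members themselves, r was 7.9e-05 for Casp2 and Cradd, 0.29 for Casp2 and Pidd1, and -0.13 for Cradd and Pidd1.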

How the data were processed

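Raw counts per gene were deposited for each of the 15 tumors; the authors made them with STAR (quality checked with FastQC) against mm10/GRCm38, as an unstranded column and 1 column per strand. The aligner version and annotation release are not given in the sources used here. The 4 summary rows of each library, which name no gene, were left out. The second-strand column was used for the tests. Since both strand columns held about equal reads (50.7% to 51.2% in the first per library), the either-strand column was an alternative. The low-count filter required more than 1 CPM in 3 or more tumors. One edgeR (4.0.16, R 4.3.3) model of 4 group means with TMM scaling was fitted, and the likelihood ratio test was used after the study's tables, with Benjamini-Hochberg FDR over 14880 genes. The quasi-likelihood test and DESeq2 (1.42.0) were alternatives, as were other scalings, no filter, the compared groups only, a 2-fold limit and leaving out each tumor. Exact permutation tests used scipy 1.17.1.

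Counts were simulated from the means and dispersions of the fitted model, and only genes above a minimum mean count were changed. No tumor was made to stand apart, so recovery in the real data may differ. On simulated counts for 14880 genes, the LRT of the lymphoma genotype comparison made 124 calls, of which 21 were false. The quasi-likelihood test made 77, of which 4 were false. Of 100 genes changed by 1 on the log2 scale, the LRT recovered 31 and the quasi-likelihood test 11, and of 100 changed by 2 they recovered 72 and 62. In the neuroblastoma comparison the LRT made 149 calls (31 false) and the quasi-likelihood test 106 (7 false), recovering 39 and 30 genes changed by 1 and 79 and 69 changed by 2.

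Named genes were the members, list genes that passed with loss of Casp2 (there were none), the list genes with the largest differences between tumor types (up to 2 per list), the neighbors, and the 5 genes most like each member. Bax and the genotype values of Mapt, Cdkn2a and Pycard fall outside this rule and were chosen after their values were seen. Of the 38 member and list genes, 4 were matched by an older symbol. The members and lists were chosen with earlier results of these data known. Transcript lengths and positions came from GENCODE M21. Of 5 myeloid markers, 4 were in the table. Counting errors cover counting only.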

Additional observations from a re-analysis of the deposited data

Results flagged for a closer look

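Of 24 groups of 4 tumors examined with Dixon's test, 2 held a tumor far from the others; chance gives about 1 in 20. The first was the first-strand share of Cradd reads in EμMyc tumors, where replicate 4 had 44.1% (95% Wilson interval 36.2% to 52.2%) and the other replicates 51.5% to 52.0%, a gap of 0.944 of the whole range. The interval of replicate 4 holds 50%. The second was the log2 ratio of Pidd1 to Casp2 in EμMyc tumors, with a gap of 0.884 of the range. There replicate 2 had a Casp2 to Pidd1 ratio of 1.56, against 2.45 to 2.60 in the other EμMyc tumors, with the lowest Casp2 level (125 CPM) and the highest Pidd1 level (76.4 CPM) of its group.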

How the results depend on the processing

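The lower Casp2 level of EμMyc/Casp2-/- tumors kept its direction under every alternative and passed in 7 of 7 fits that left out 1 tumor (log2 fold change -1.54 to -1.22). It did not pass with the quasi-likelihood test (-1.36, FDR 0.0536) or with that test on either-strand reads, an alternative chosen after seeing the data (-1.35, FDR 0.0611). In the neuroblastomas it ranged from -0.98 to -0.63 when 1 tumor was left out and passed in 1 of 8 fits. Casp2 between EμMyc and Th-MYCN (0.66) was under the 2-fold limit and ranged from 0.53 to 0.79, passing in 6 of 8 fits.

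Differences near 0 changed sign without passing. Cradd in the lymphomas became 0.0082 with DESeq2, 0.0048 with DESeq2's size factors in edgeR, 0.028 with library totals only, 0.044 with either-strand reads and 0.041 with those and the quasi-likelihood test, and Pidd1 in the lymphomas -0.0045 with either-strand reads by both tests. With 1 tumor left out, Cradd ranged from -0.36 to 0.14 in the lymphomas, -0.024 to 0.13 in the neuroblastomas, -0.10 to 0.013 between wild-type and -0.47 to 0.086 between Casp2-/- tumor types, and -0.44 to 0.071 for the interaction. Pidd1 ranged from -0.062 to 0.097 in the lymphomas and -0.35 to 0.024 between Casp2-/- tumor types, and Casp2 from -0.093 to 0.29 there. First-strand shares, in percentage points, ranged from -0.56 to 1.40 (Casp2, lymphomas), -1.81 to 0.97 (Cradd, neuroblastomas), -2.01 to 0.78 (Pidd1, lymphomas) and -0.81 to 0.080 (Pidd1, neuroblastomas). The log2 ratio of Pidd1 to Casp2 in the neuroblastomas ranged from 1.11 to 1.47 over 8 such fits, whose exact permutation p cannot go below 0.0571.

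Genes passing numbered 223 in the lymphomas, 133 in the neuroblastomas and 136 for the interaction, against 21, 5 and 8 with the quasi-likelihood test and 22, 4 and 4 with that test on either-strand reads. With the compared groups only there were 46 and 353. Leaving out 1 tumor gave 77 (without EμMyc/Casp2-/- replicate 1) to 571, 31 to 200 and 55 to 322. The cause was not tested. No paired analysis was possible because each mouse has its own number and no number is shared between groups. At 34 to 157 second-strand reads per tumor (71 to 311 on either strand), depth limits what can be said of Cradd.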
